A study of Caenorhabditis elegans with 12 samples.

Results

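Here, the mRNA levels of wild-type *Caenorhabditis elegans* adults grown at 15 °C were compared with those of wild-type adults grown at 25 °C. The comparison rests on 3 independent biological repeats at 15 °C and 3 at 25 °C, which are 6 of the 12 libraries of a study of the Mediator subunit gene *mdt-15*. All worms of both groups were the Bristol N2 strain and carried no mutation or transgene. They were synchronised by bleaching, hatched overnight in M9 buffer, and then placed as L1 larvae on plates with OP50 bacteria at 15 °C or 25 °C until they were day 1 adults, when whole worms were collected. The time that a worm needs to reach that stage goes with temperature, and the effects of both cannot be told apart here. All 12749 genes tested in the authors' deposited table for this comparison were taken, which are also all of the 12749 genes tested in the series. The other 6 libraries are *mdt-15(tm2182)* mutants, and they enter the average expression and the level estimates below. They may also enter the standard errors, p-values and calls, through a shared fit or the authors' filter on low counts. The sources used here do not settle this.

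The table holds a log2 fold change, an average log2 expression, a moderated t statistic of limma and p-values for each gene. It holds no value per library, so the spread among repeats itself cannot be given, and library depth is unknown. The standard error of the log2 fold change is given instead. It was recovered from the moderated t, in which the spread of a gene is drawn towards that of other genes. All log2 fold changes are 15 °C minus 25 °C, so a negative value means a lower mRNA level at 15 °C. The standard error had a median of 0.45 over all genes. For 12443 genes, approximate levels in cpm (read counts scaled by library size) were worked out by combining average expression with the fold changes. These levels assume that the average runs over all 12 libraries, which the sources used here do not state. Since cpm is not divided by gene length, it is used here to compare temperatures and not genes. Genes were called at the limits of the study (fold change > 1.5 and an unadjusted p below 0.05, two-sided), and calls that also had an adjusted p below 0.05 are given beside them.

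*C*. *elegans* is an ectotherm, so its body takes the temperature of its surroundings. It develops faster and lives shorter when warm, and cold-grown worms raise the share of unsaturated fatty acids in their membranes. The heat-shock response, innate immune effectors of the intestine and thermosensory neurons are all known to respond to temperature in this animal.

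At 15 °C, 407 genes were higher (3.19% of all genes tested) and 788 were lower (6.18%). These are the shares to set beside the family counts below. With the adjusted p, 40 genes were higher (0.314%) and 118 were lower (0.926%), so 65.9% of the calls were lower at the study's limits and 74.7% with adjustment. The median log2 fold change over all genes was 0.04, and the median absolute value was 0.37. Calls were more frequent among genes of low expression. In the first quartile of average expression, 4.39% of genes were higher and 7.53% were lower, with a median standard error of 0.64. In the fourth quartile, 1.73% were higher and 3.48% were lower, with a median standard error of 0.33.

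**Figure D1:**
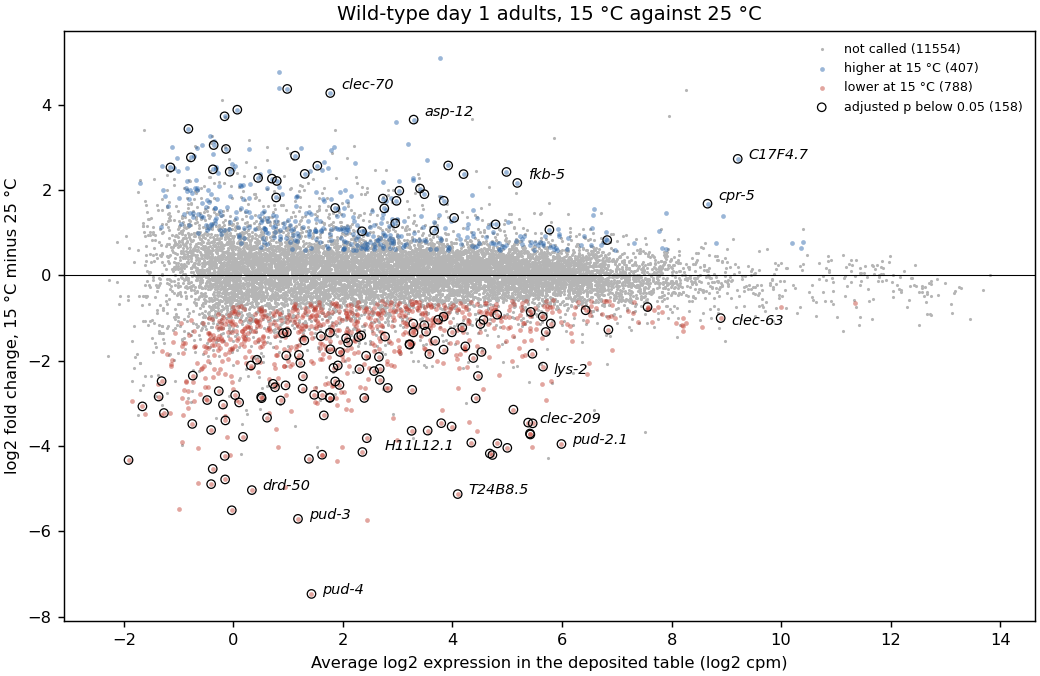
Each point is a gene of the wild-type comparison, with its average log2 expression in the deposited table (log2 cpm, taken to be over the 12 libraries of the series) on the x axis and its log2 fold change (15 °C minus 25 °C) on the y axis. Blue points are the 407 genes higher at 15 °C, red points the 788 lower, grey points genes not called, and black rings genes with an adjusted p below 0.05, and the lowest value is that of *pud-4* (-7.47).

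The lowest values of the whole comparison lay in the *pud* genes, short nematode genes named for proteins that are up-regulated in dauer larvae. All 6 *pud* genes were lower at 15 °C, 5 of them with adjustment, and the median of the 6 was -3.84. Their summed level was 604 cpm at 15 °C, against 7939 cpm at 25 °C. *pud-4* had an estimated 2.46 cpm at 15 °C, against 434 cpm at 25 °C, a log2 fold change of -7.47 (standard error 0.40, adjusted p = 2.7e-05). *pud-3* had 4.14 cpm at 15 °C and 216 cpm at 25 °C (-5.71, standard error 0.62, adjusted p = 0.0033). The 4 others changed less. *pud-2.1* had 179 cpm at 15 °C and 2774 cpm at 25 °C (-3.95, standard error 0.60), *pud-1.2* changed by -3.73 (standard error 0.52), *pud-1.1* by -3.70 (standard error 0.51), and *pud-2.2* by -2.91 (standard error 0.73, adjusted p = 0.11). *pud-1.1* and *pud-1.2*, and *pud-2.1* and *pud-2.2*, are near-identical copies, so reads of a pair may have been shared between them. The 6 genes are neighbours on chromosome V (2322038 to 2330930, WBcel235), and no other gene tested lies between them.

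Outside the *pud* genes, the lowest values were read among protein-coding genes with an adjusted p below 0.05 and an average log2 expression of at least 0. Below that limit on expression, *math-45* (-4.89) and *fbxa-151* (-4.53) also passed adjustment. *T24B8.5* (chromosome II, 9082626 to 9083193), which carries the current symbol *sysm-1* and is widely used as a readout of the PMK-1 p38 immune pathway, had 1.90 cpm at 15 °C and 66.3 cpm at 25 °C (-5.12, standard error 0.50, adjusted p = 0.0018). *drd-50* fell to 0.21 cpm at 15 °C, against 6.88 cpm at 25 °C (-5.03, standard error 0.67). *C32H11.4* changed by -4.14 (standard error 0.38, adjusted p = 0.0013) and *Y68A4A.13* by -4.20 (standard error 0.72, adjusted p = 0.023). *H11L12.1* on the X chromosome had the smallest error of these genes. It had 3.65 cpm at 15 °C and 55.2 cpm at 25 °C (-3.92, standard error 0.24, adjusted p = 4.7e-05). The 15 lowest genes by this rule also held 4 of the *hsp-16* small heat-shock genes, a family of which 6 of 6 were lower and 5 with adjustment.

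Among the genes higher at 15 °C, the 15 largest values with adjustment and an average log2 expression of at least 0 were led by *fat-7* and then *clec-70*, a C-type lectin gene. Below that limit on expression, *gpa-1* (3.73), *lys-10* (3.06) and *clec-190* (2.97) also passed adjustment. *clec-70* had 5.07 cpm at 15 °C and 0.26 cpm at 25 °C (4.28, standard error 0.82, adjusted p = 0.037). *T05C12.15* changed by 3.89 (standard error 0.62) from a low level, with 1.88 cpm at 15 °C and 0.13 cpm at 25 °C. *C17F4.7* (chromosome II, 3245087 to 3246015) stood at 689 cpm at 15 °C and 104 cpm at 25 °C (2.73, standard error 0.48, adjusted p = 0.024). *K10C2.8* had 40.8 cpm at 15 °C and 7.86 cpm at 25 °C (2.38, standard error 0.33). *C36C5.5*, now *exh-1*, changed by 2.58 (standard error 0.39), *B0205.13* by 2.43 (standard error 0.43) and *C09B8.4* by 2.22 (standard error 0.31). *C23H3.9*, *K07H8.7* and *ZC21.10*, all under 5 cpm at both temperatures, changed by 2.81, 2.29 and 2.27. FK506-binding genes, which encode peptidyl-prolyl isomerases that help proteins fold, stood at both ends. *fkb-5* had 71.8 cpm at 15 °C and 16 cpm at 25 °C (2.17, standard error 0.38, adjusted p = 0.024), whereas *fkb-8* had 1.01 cpm at 15 °C and 14.2 cpm at 25 °C (-3.81, standard error 0.54, adjusted p = 0.0091). The 6 other FK506-binding genes were not called.

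**Figure D2:**
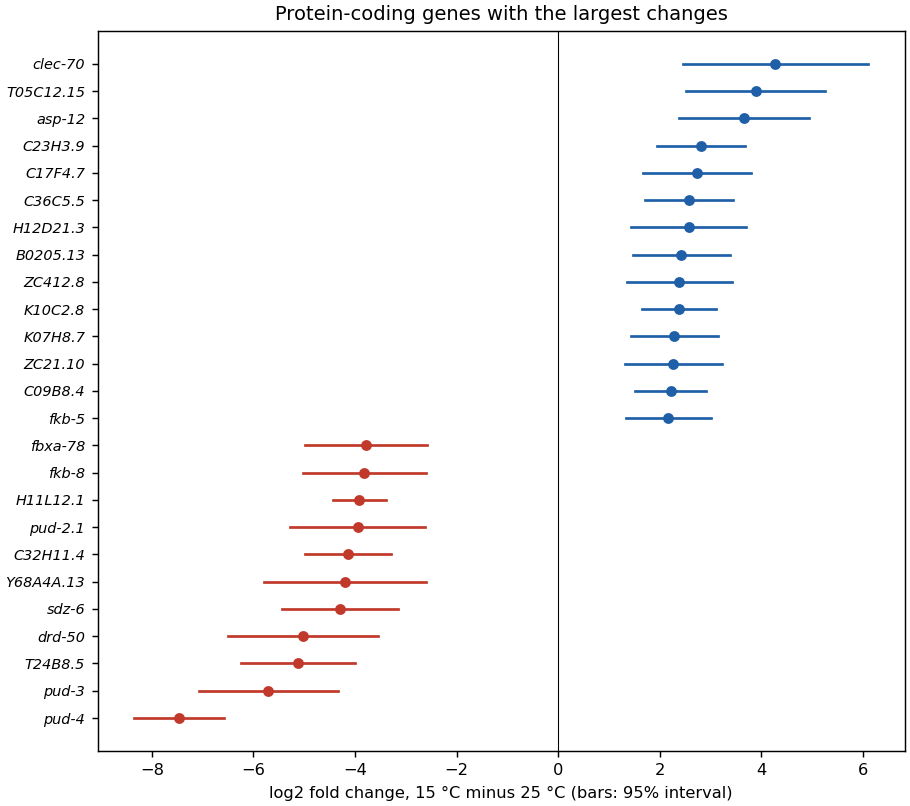
Log2 fold changes (15 °C minus 25 °C, x axis) of the protein-coding genes with the largest and lowest values among those with an adjusted p below 0.05 and an average log2 expression of at least 0, leaving out *fat-7* and the *hsp-16* genes. Points are the estimates and bars their 95% intervals, and the values run between 4.28 (*clec-70*, blue, higher at 15 °C) and -7.47 (*pud-4*, red, lower at 15 °C).

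Most other chaperone families held few calls. Chaperones bind unfolded proteins, and HSF-1, the heat-shock transcription factor, raises many of them when proteins are damaged. In the HSP70 and HSP110 group, 2 of 9 genes were lower. These were *F44E5.4* (0.46 cpm at 15 °C and 3.60 cpm at 25 °C, -2.98, standard error 0.82, adjusted p = 0.15) and *F44E5.5* (-2.97, standard error 0.83), a stress-inducible pair whose near-identical reads may not be distinguishable. The constitutive genes were not called. *hsp-1* had 2055 cpm at 15 °C and 2128 cpm at 25 °C (-0.05, standard error 0.30), and *daf-21*, the HSP90 gene, had 2046 cpm at 15 °C and 2061 cpm at 25 °C (-0.01, standard error 0.24). None of the 9 chaperonin genes and none of the 19 endoplasmic reticulum folding genes was called, and 1 of 29 DnaJ genes was lower, *dnj-14* (-0.82, standard error 0.33). Of the small heat-shock genes other than *hsp-16*, 6 of 8 were not called. *hsp-12.6* rose (1.63, standard error 0.59, adjusted p = 0.32) and *hsp-12.1* fell (-1.29, standard error 0.49, adjusted p = 0.36), neither with adjustment. *hsf-1* itself had 17.4 cpm at 15 °C and 12 cpm at 25 °C (0.53, standard error 0.55) and was not called.

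Genes of innate immunity were called in both directions. C-type lectin genes encode secreted or membrane proteins with a sugar-binding fold, and many of them are induced in the intestine by pathogens. Of 240 annotated C-type lectin genes, 90 were tested, and 10 were higher (11.1%) and 21 lower (23.3%) at 15 °C, against 3.19% and 6.18% of all genes. With adjustment, 3 were higher and 4 lower. The lowest was *clec-209* on chromosome V, with 18.3 cpm at 15 °C and 199.8 cpm at 25 °C (-3.45, standard error 0.30, adjusted p = 0.00080). *F56A4.2*, a gene with the same current symbol and nearly the same values (19 cpm at 15 °C and 210.5 cpm at 25 °C, -3.47), may share its reads. Of a group of neighbours on chromosome II (12895638 to 12906644), *clec-63* had 206 cpm at 15 °C and 411 cpm at 25 °C (-0.999, standard error 0.17, adjusted p = 0.023), *clec-65* had 14.6 cpm at 15 °C and 52.1 cpm at 25 °C (-1.84, standard error 0.19, adjusted p = 0.0025), and *clec-66* changed by -1.01 without adjustment. In the other direction, *clec-190* had 10.8 cpm at 15 °C and 1.38 cpm at 25 °C (2.97, standard error 0.41, adjusted p = 0.0086), and *clec-10* had 18 cpm at 15 °C and 5.35 cpm at 25 °C (1.75, standard error 0.34, adjusted p = 0.040). The median of the 90 was -0.15, so the family spread widely around a value near that of all genes.

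The lysozymes, which cut bacterial cell walls, split in a similar way. Of 12 tested, 5 were higher (41.7%) and 4 were lower (33.3%), against 3.19% and 6.18% of all genes, and 3 were not called. Each end held a member with an adjusted p below 0.05. *lys-10* had 9.79 cpm at 15 °C and 1.18 cpm at 25 °C (3.06, standard error 0.34, adjusted p = 0.0033), and *lys-2* had 10.2 cpm at 15 °C and 45 cpm at 25 °C (-2.14, standard error 0.28, adjusted p = 0.0070). The direction differed between groups of neighbouring genes. *lys-4*, *lys-5* and *lys-6*, adjacent on chromosome IV (11621429 to 11627947), were all higher at 15 °C (1.47, 1.33 and 0.70), while *lys-1* and *lys-2*, next to each other on chromosome V, were lower (-0.99 and -2.14). *ilys-5*, an invertebrate-type lysozyme gene, had 1633 cpm at 15 °C and 945 cpm at 25 °C (0.79, standard error 0.32, adjusted p = 0.40). *lys-8* had 137 cpm at 15 °C and 335 cpm at 25 °C (-1.29, standard error 0.42, adjusted p = 0.25).

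**Figure D3:**
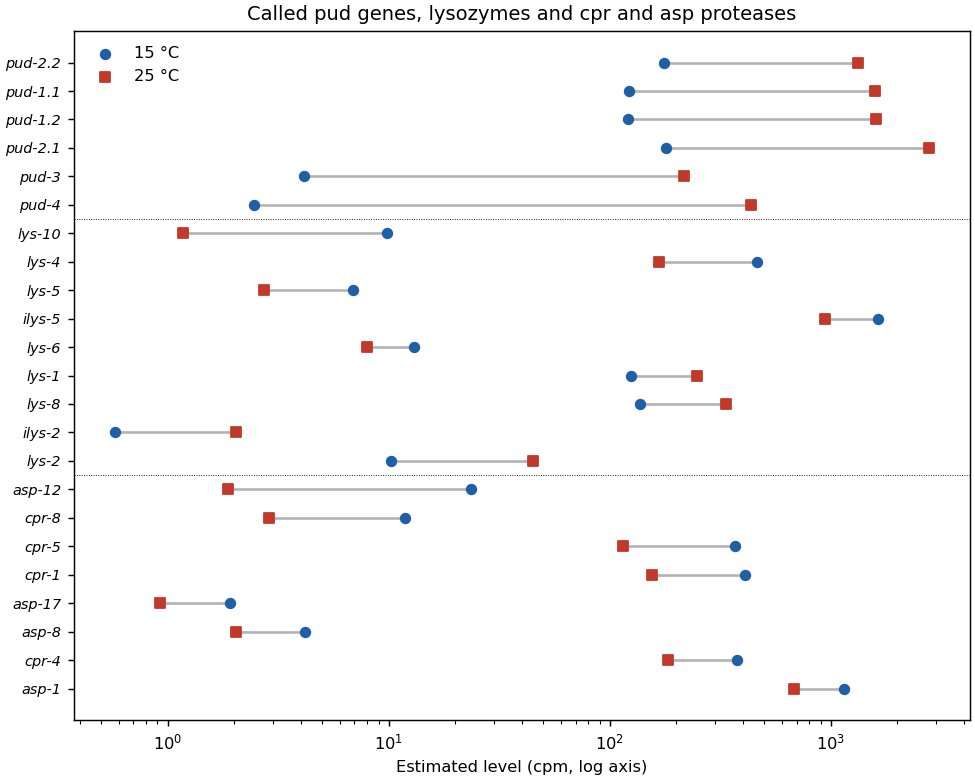
Estimated levels (cpm, log axis) at 15 °C (blue circles) and 25 °C (red squares) of the called *pud* genes, lysozyme genes and *cpr* and *asp* protease genes, separated by dotted lines. The 6 *pud* genes sit lower at 15 °C, the lysozyme genes lie on both sides, with 5 higher and 4 lower, and the 8 protease genes sit higher at 15 °C.

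Smaller immune families also held calls. Their shares are to be read against 3.19% higher and 6.18% lower of all genes. Of 6 chitinase-like genes tested, 3 were lower (50%) and none was higher. These were *chil-10*, *chil-13* (-0.9997) and *chil-24*, with values between -0.64 and -1.08 and none with adjustment. Of the 15 *pals* genes, a group induced by intracellular parasites and by virus in *C*. *elegans*, only *C17H1.7*, now *pals-6*, was called (0.13 cpm at 15 °C and 1.00 cpm at 25 °C, -2.93, standard error 0.46, adjusted p = 0.015). Of the saposin-like and other antimicrobial genes, 5 of 48 were higher (10.4%) and 2 were lower (4.17%). *abf-2*, a defensin-like gene, changed by -1.95 (standard error 0.66) and *spp-8*, a saposin-like gene, by -0.90 (standard error 0.26), both without adjustment. The epidermal antimicrobial peptide genes gave 3 higher and 3 lower of 14 (21.4% in each direction). Among them were *cnc-7* at 2.44 (standard error 0.55, adjusted p = 0.067) and *nlp-34* at -2.17 (standard error 0.80, adjusted p = 0.34). Of the *dod* genes, which lie downstream of the FOXO factor DAF-16, *dod-22* was lower with adjustment (-1.40, standard error 0.28, adjusted p = 0.045), *dod-24* was lower (-1.32, adjusted p = 0.33), and *dod-6* (1.54) and *dod-23* (0.71) were higher.

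Genes for substrate adaptors of ubiquitin ligases had 22.1% of their tested members called lower at 15 °C, against 6.18% of all genes. F-box, MATH and BTB proteins hold target proteins for cullin ligases, Skp1-related proteins link F-box proteins to the cullin, and in *C*. *elegans* these families are greatly expanded. Of 231 such genes tested, 51 were lower, 6 were higher and 174 were not called, and 165 of the 231 had a value below 0. Among the 12518 other genes, 5.89% were lower. With adjustment, 8 of the 231 were lower and none was higher. The authors left out genes under 1 cpm, so a gene low at 15 °C may have been tested only through another group. The part of this filter in the share of lower calls was not tested.

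The adaptor families are given one by one, and the difference in calls between them was not tested. In the F-box A genes, 107 of 190 annotated genes were tested, and the median was -0.27. Of these, 21 were lower (19.6%) and 4 higher (3.74%), against 6.18% and 3.19% of all genes. *fbxa-151* had 0.094 cpm at 15 °C and 2.17 cpm at 25 °C (-4.53, standard error 0.50, adjusted p = 0.0033), *fbxa-78* changed by -3.78 (standard error 0.54), *fbxa-166* by -2.80 (standard error 0.56) and *fbxa-74* by -1.42 (standard error 0.24, adjusted p = 0.023). Of 104 annotated F-box B genes, only 11 passed the filter on low counts. Of these 11, 7 were lower (63.6%) and 4 were not called, with a median of -1.51. *fbxb-10* (-2.88) and *fbxb-97* (-1.84) were among them, with adjusted p of 0.12 and 0.10. Of the 22 F-box C genes tested, 3 were lower (13.6%), *fbxc-25* (-2.61, standard error 0.74), *fbxc-51* (-2.11) and *fbxc-18* (-1.58), and *fbxc-33* was higher (0.60), none with adjustment. Of the 71 MATH and BTB genes tested, 15 were lower (21.1%) and 1 was higher (1.41%). *math-45* had 0.093 cpm at 15 °C and 2.75 cpm at 25 °C (-4.89, standard error 0.55, adjusted p = 0.0037), *btb-16* had 0.78 cpm at 15 °C and 5.44 cpm at 25 °C (-2.80, standard error 0.36, adjusted p = 0.0070), and *bath-13* changed by -2.11 (standard error 0.33, adjusted p = 0.014). Of the 20 Skp1-related genes, 5 were lower (25%) and none higher, with *skr-21* at -1.06 (standard error 0.29) and *skr-10* at -2.17 (standard error 0.80). Of the 49 lower adaptor genes with a level estimate, 22 were under 1 cpm at 15 °C, which is below the limit of that filter.

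Chromosome II held 90 of the 231 adaptor genes and 25 of their 51 lower calls. Among the other genes of chromosome II, 5.94% were lower, which is close to the 5.89% over all chromosomes. The adaptor genes of chromosomes III and V also had a higher share of lower calls than the other genes there (8 of 42 and 11 of 55, against 4.75% and 8.57%). So did the fewer adaptor genes of chromosomes I, IV and X (2 of 18, 3 of 18 and 2 of 8, against 4.17%, 6.06% and 5.33%). Several lay side by side. In a region of chromosome II from 1616829 to 1653497, *fbxa-166*, *fbxa-158* and *fbxb-15* were lower, as were their neighbours *C08E3.13* and *C08E3.1*. The values ran between -1.48 and -4.78, and the lowest was not that of an F-box gene listed here.

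**Figure D4:**
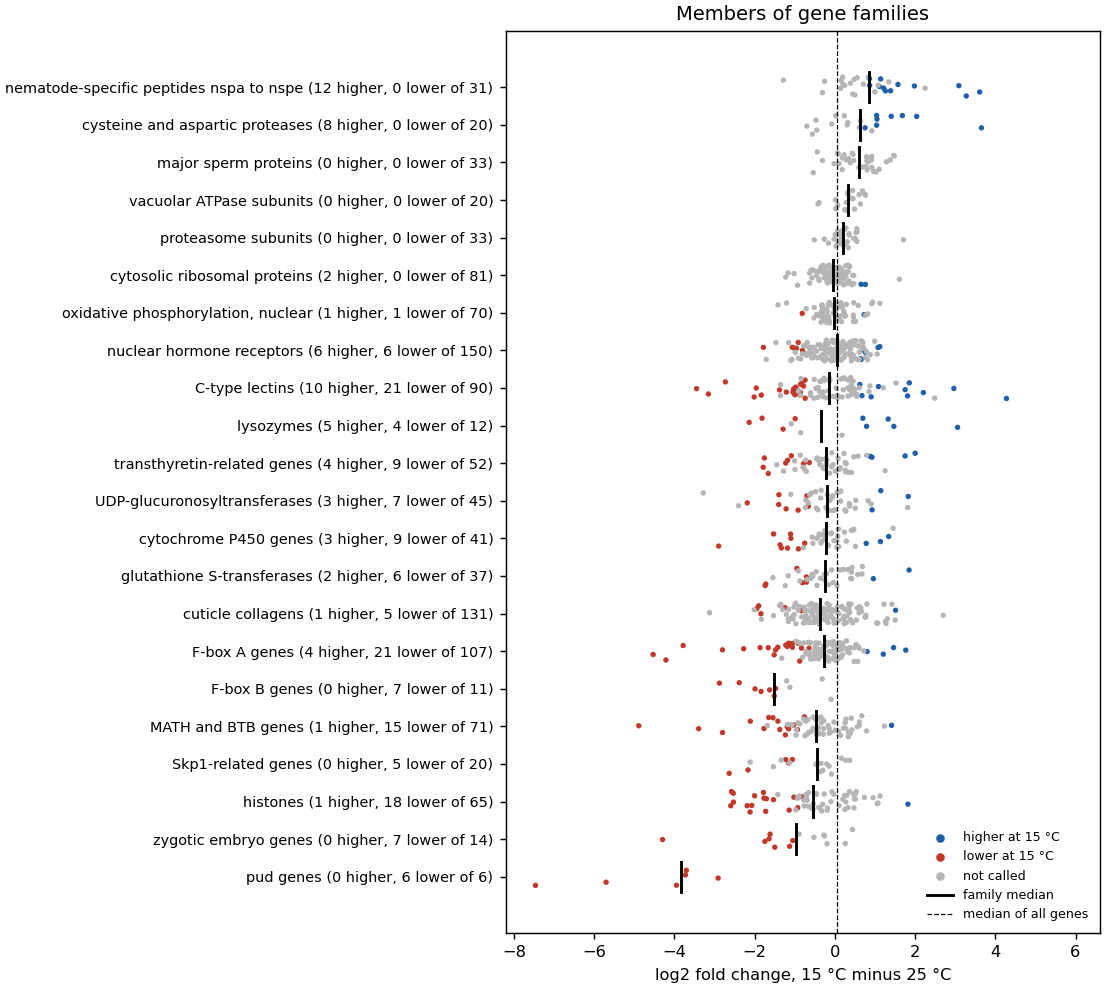
Log2 fold changes (15 °C minus 25 °C, x axis) of the tested members of 22 gene families (rows), with the counts called higher and lower at 15 °C beside each name. Each point is a gene (blue higher at 15 °C, red lower, grey not called), thick black lines are family medians and the dashed line is the median of all genes (0.04), and the medians lie between 0.86 for the nematode-specific peptides and -3.84 for the *pud* genes.

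Of the genes for lysosomal and digestive proteases, 40.0% were called higher at 15 °C, against 3.19% of all genes. The *cpr* genes encode cathepsin B-like cysteine proteases and the *asp* genes cathepsin D-like aspartic proteases, many of which act in the gut lumen or in lysosomes. Of the 20 such genes tested, 8 were higher, none was lower and 12 were not called, 3 were higher with adjustment, 15 had a value above 0, and the median was 0.62. *asp-12* had 23.6 cpm at 15 °C and 1.87 cpm at 25 °C (3.65, standard error 0.58, adjusted p = 0.015). *cpr-5* stood at 370 cpm at 15 °C and 115.2 cpm at 25 °C (1.68, standard error 0.29, adjusted p = 0.023), and its neighbour *cpr-8* had 11.9 cpm at 15 °C and 2.88 cpm at 25 °C (2.04, standard error 0.33, adjusted p = 0.018). *cpr-1* (1.40), *cpr-4* (1.04), *asp-17* (1.05), *asp-8* (1.04) and *asp-1* (0.75) were called without adjustment. Genes for other parts of protein and organelle breakdown gave few calls. None of the 33 proteasome genes and none of the 20 vacuolar ATPase genes was called, with medians of 0.19 and 0.32, and 1 of 29 autophagy genes was lower, *epg-2* (-1.50, standard error 0.63). Of the astacins and other metalloproteases, 2 of 28 were higher and none was lower.

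The nematode-specific peptide genes *nspa* to *nspe* encode short peptides of mostly unknown role. Of 31 tested, 12 were higher (38.7%, against 3.19% of all genes) and none was lower, 28 had a value above 0, and the median was 0.86. *nspc-18* had 34 cpm at 15 °C and 11.4 cpm at 25 °C (1.57, standard error 0.31, adjusted p = 0.042). *nspa-7* had 22.1 cpm at 15 °C and 1.81 cpm at 25 °C (3.61, standard error 0.99, adjusted p = 0.14), and *nspa-6* changed by 3.09 (standard error 0.87, adjusted p = 0.16). These *nspa* genes lie with *ZC412.8* and *H12D21.3* in a stretch of chromosome V (14878348 to 14891186) in which all 8 genes tested had a value above 0 and 4 were called higher. *H12D21.3* (2.57, standard error 0.51, adjusted p = 0.043) and *ZC412.8* (2.38, standard error 0.47, adjusted p = 0.041) were both called with adjustment, but they share a current symbol and may share reads. The *nspa* genes are repeats of one another as well.

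Whole adults also hold sperm, whose marker genes are given beside these values. None of the 33 major sperm protein genes was called, but 29 of the 33 had a value above 0, with a median of 0.60. Their median standard error was larger than that (0.79), and how far they share reads was not tested. Over the 78 genes of the sperm marker list, 58 were above 0, 1 was higher and 2 were lower, and the summed level was 3332 cpm at 15 °C and 2449 cpm at 25 °C. *nspd-9* was the higher gene (1.59, standard error 0.51, adjusted p = 0.23), and *spe-6* (-1.86, standard error 0.68, adjusted p = 0.33) and *spe-47* (-1.23, standard error 0.42, adjusted p = 0.28) were the lower genes. In RNA of whole worms, a change in the number of cells of a type and a change in RNA per cell cannot be told apart. The part of sperm number in the values of other genes was not tested.

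Of the transthyretin-related genes, a nematode family of secreted proteins, 4 of 52 were higher (7.69%) and 9 lower (17.3%), against 3.19% and 6.18% of all genes. *ttr-44* had 10.5 cpm at 15 °C and 33.1 cpm at 25 °C (-1.66, standard error 0.28, adjusted p = 0.023), and *ttr-26* had 12.9 cpm at 15 °C and 3.85 cpm at 25 °C (1.75, standard error 0.34, adjusted p = 0.037). Neighbours *ttr-40* (-1.79) and *ttr-49* (-1.76) were both lower without adjustment. Of 6 SCP-like genes, *scl-14* (2.96, standard error 0.73) and *scl-3* (1.32, standard error 0.31, adjusted p = 0.083) were higher and none was lower. The neuropeptide and insulin-like genes gave 9 higher (7.38%) and 2 lower (1.64%) of 122. This list overlaps that of the epidermal antimicrobial peptides, so *nlp-28* (higher) and *nlp-34* (lower) are counted in both. The 25 *ins* genes alone were set apart after their values were seen. Of these, 4 were higher (16%) and 1 was lower (4%), none with adjustment, 17 had a value above 0, and the median was 0.79. *ins-7*, an insulin-like gene of the intestine and neurons, had 5.50 cpm at 15 °C and 16.4 cpm at 25 °C (-1.58, standard error 0.67, adjusted p = 0.44), while *ins-30* was higher (1.14, standard error 0.42, adjusted p = 0.34).

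Of the structural genes of the cuticle, few were called. Collagens form the cuticle, and each larval stage and the adult make their own. Of 174 annotated collagen genes, 131 were tested, and 5 were lower (3.82%) and 1 was higher (0.763%). Both shares lie under those of all genes (6.18% and 3.19%). The median of -0.38 lay below that of all genes, and 89 of the 131 had a value below 0. Among those called were *col-43* (-1.90, standard error 0.49), *col-150* (-1.84, standard error 0.55) and *col-141* (1.51, standard error 0.59), none with adjustment. The adult collagen *col-19* had 3657 cpm at 15 °C and 6101 cpm at 25 °C, but its error was large (-0.74, standard error 0.63) and it was not called. The other adult hypodermis markers, the collagen genes *col-7* (1.04, standard error 0.69) and *col-62* (0.77, standard error 0.60), had values above 0 and were not called either. Of the 4 markers of larval moulting, none was called, and their summed level was 3.21 cpm at 15 °C and 4.34 cpm at 25 °C. Of the 24 hedgehog-like genes, 3 were lower, and these were neighbours on chromosome IV, *grd-3* (184 cpm at 15 °C and 412 cpm at 25 °C, -1.17, standard error 0.30), *grd-10* (-1.51) and *grd-13* (-0.93). None of the 11 patched-related genes and none of the 9 moulting genes was called.

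Of the histone genes, 27.7% were called lower at 15 °C, against 6.18% of all genes. Core histones package DNA, and their replication-dependent genes are transcribed in dividing cells, which in adult worms are those of the germ line and embryos. Of 65 histone genes tested, 18 were lower and 1 was higher, none with adjustment, 46 were not called and 20 had a value above 0, and the median was -0.54. *his-53* had 1.14 cpm at 15 °C and 6.87 cpm at 25 °C (-2.60, standard error 0.64, adjusted p = 0.11), *his-19* changed by -2.58 (standard error 0.64), *his-52* by -2.12 (standard error 0.52) and *his-22* by -2.07 (standard error 0.52). The calls were unevenly placed. On chromosome V, 11 of 25 were lower and 23 had a value below 0, and on chromosome II, 5 of 14 were lower and all 14 were below 0, whereas on chromosome IV none of 18 was called, 3 were below 0 and the median was 0.47. The lower genes of chromosome V included *his-51* to *his-54* (8849788 to 8872003 with the neighbour *F07B7.2*) and *his-19* to *his-22* (8891883 to 8896148). Copies of a core histone gene are nearly identical in their coding sequence, and replication-dependent histone mRNAs lack a poly(A) tail. The sources used here do not say how RNA was selected for the libraries, so these levels are uncertain. *his-24*, which encodes a linker histone, was also lower (18.4 cpm at 15 °C and 53.3 cpm at 25 °C, -1.53, standard error 0.39, adjusted p = 0.12).

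Day 1 adult hermaphrodites carry embryos, and the *sdz* genes and *pes-1* are transcribed early from the embryo's own genome. Of 14 such genes tested, 7 were lower (50%, against 6.18% of all genes), 1 with adjustment, 7 were not called, none was higher and the median was -0.97. Their summed level was 62.2 cpm at 15 °C and 133 cpm at 25 °C. *sdz-6* had 0.41 cpm at 15 °C and 8.13 cpm at 25 °C (-4.30, standard error 0.52, adjusted p = 0.0055), and *sdz-27* had 42.1 cpm at 15 °C and 92.0 cpm at 25 °C (-1.13, standard error 0.29, adjusted p = 0.11). *end-1*, *end-3*, *med-1*, *med-2*, *tbx-37* and *tbx-38*, the defining markers of early endoderm and early blastomeres, were not among the genes tested. In contrast, the oocyte markers did not move together. Of 11 tested, 6 were above 0, and the summed level was 5497 cpm at 15 °C and 5657 cpm at 25 °C. Of the wider list of 38 oocyte, germ granule and eggshell genes, only *oma-2*, which acts in oocyte maturation, was called (146 cpm at 15 °C and 54.4 cpm at 25 °C, 1.42, standard error 0.61, adjusted p = 0.44). The part of embryo number or age in these values was not tested.

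Yolk genes, which the intestine transcribes for the oocytes, had values below 0 for 6 of 6, with a median of -0.51. Only *vit-6* was called, at 2201 cpm at 15 °C and 3431 cpm at 25 °C (-0.64, standard error 0.26, adjusted p = 0.41). Among the other intestinal markers, *ges-1*, a gut esterase gene, was lower (7.96 cpm at 15 °C and 13.5 cpm at 25 °C, -0.76, standard error 0.20, adjusted p = 0.12), and *elt-2*, the main intestinal GATA factor gene, was not called (-0.23, standard error 0.37). *elt-7*, another intestinal GATA factor gene, had a value above 0 with a wide error (1.28, standard error 1.18) and was not called. None of the 3 muscle, 2 pharyngeal and 4 neuronal markers was called, with medians of -0.04, 0.24 and -0.06. The markers of all of these tissues were present in both groups, as in whole worms.

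Genes for detoxification were called in both directions, and their families were not tested against each other. Cytochrome P450s oxidise foreign compounds and lipids, and UDP-glucuronosyltransferases and glutathione S-transferases conjugate the products. Of 41 P450 genes tested, 9 were lower (22%) and 3 higher (7.32%), against 6.18% and 3.19% of all genes. *cyp-34A8* had 7.13 cpm at 15 °C and 18 cpm at 25 °C (-1.33, standard error 0.27, adjusted p = 0.046), and *cyp-37B1* (-2.90, standard error 0.62), *cyp-14A2* (-1.53) and *cyp-25A1* (-1.10) were lower without adjustment. Of 45 UDP-glucuronosyltransferase genes, 7 were lower (15.6%) and 3 higher (6.67%). Among them were *ugt-44* with 2.41 cpm at 15 °C and 10.9 cpm at 25 °C (-2.19, standard error 0.27, adjusted p = 0.0058) and *ugt-1* with 3.67 cpm at 15 °C and 1.03 cpm at 25 °C (1.83, standard error 0.33, adjusted p = 0.028). Of 37 glutathione S-transferase genes, 6 were lower (16.2%), including the stress reporter gene *gst-4* (28.2 cpm at 15 °C and 46.1 cpm at 25 °C, -0.71, standard error 0.24, adjusted p = 0.27). In the same family 2 were higher (5.41%), *gsto-1* (1.85, standard error 0.53) and *gst-35* (0.96). Of 33 ABC transporter genes, 2 were higher (6.06%, against 3.19% of all genes) and none was lower (against 6.18%). The higher genes were *pgp-14* (1.72, standard error 0.43) and *mrp-2* (1.13, standard error 0.34). Short-chain dehydrogenase genes gave 3 calls in each direction of 29, and 2 of 12 aldehyde dehydrogenase genes were lower, *alh-12* (-0.75, standard error 0.19) and *alh-6* (-0.59).

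Of the antioxidant genes, 2 of 25 were lower, both for glutathione peroxidases. *gpx-4* had 1.19 cpm at 15 °C and 8.68 cpm at 25 °C (-2.86, standard error 0.42, adjusted p = 0.011), and *gpx-7* changed by -1.29 (standard error 0.56, adjusted p = 0.46). The metallothionein gene *mtl-1*, which is induced by metals, heat and DAF-16, had 0.16 cpm at 15 °C and 7.09 cpm at 25 °C. Its fold change was large but uncertain (-5.48, standard error 1.41, adjusted p = 0.12). *gpdh-1*, which makes glycerol under osmotic stress, was lower (5.60 cpm at 15 °C and 12.7 cpm at 25 °C, -1.18, standard error 0.30, adjusted p = 0.12), and no other of the 10 trehalose and glycerol genes was called.

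Genes of central metabolism and of protein synthesis showed few calls. Of 23 glycolysis and gluconeogenesis genes, 1 was higher, *hxk-3*, a hexokinase gene (1.28, standard error 0.36, adjusted p = 0.16). Of 24 genes of the Krebs and glyoxylate cycles, 1 was lower, *suca-1* (-0.77, standard error 0.21, adjusted p = 0.14). Of 70 genes in the list for nuclear genes of oxidative phosphorylation, 1 was lower and 1 was higher. The highest value of this list (1.12) is also that of the mitochondrially encoded list, so the 2 lists overlap. The lower gene was *gas-1*, a complex I subunit gene whose value was small but precise, with 47.8 cpm at 15 °C and 84.0 cpm at 25 °C (-0.81, standard error 0.16, adjusted p = 0.038). The higher gene was *F45H11.5*, now *cox-19*, an assembly factor (0.73, standard error 0.20, adjusted p = 0.14). None of the 12 genes in the mitochondrially encoded list was called. Of all 16 genes tested on the mitochondrial chromosome, which include genes outside that list, 1 was lower, also with adjustment.

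Cytosolic ribosomal protein genes had a summed level of 327348 cpm at 15 °C and 365623 cpm at 25 °C. Of the 81 tested, 2 were higher, *rpl-30* (0.65, standard error 0.26) and *rpl-24.2* (0.76, standard error 0.33), and the median was -0.05. Of the 69 mitochondrial ribosomal protein genes, *mrps-10* was lower (-1.72, standard error 0.67), and of the 33 tRNA synthetase genes, *pars-1* was lower (-0.71, standard error 0.28). The higher nucleolar gene was *nol-1*, an rRNA methyltransferase homolog (65.7 cpm at 15 °C and 40.2 cpm at 25 °C, 0.71, standard error 0.21, adjusted p = 0.19), 1 of 24 tested.

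In lipid metabolism outside the desaturases and elongases, the acyl-CoA and beta-oxidation genes gave 6 higher and 4 lower of 57. *acdh-2*, an acyl-CoA dehydrogenase gene, had 19 cpm at 15 °C and 3.52 cpm at 25 °C (2.43, standard error 0.33, adjusted p = 0.0080). *acs-17* (1.80, standard error 0.46), *acox-5* (1.14) and *acs-7* (-1.002) were called without adjustment. Of the 16 lipid-binding genes, *far-3*, which encodes a secreted fatty acid and retinol binding protein, fell to 9.62 cpm at 15 °C, against 59.7 cpm at 25 °C (-2.63, standard error 0.48, adjusted p = 0.029). Of the 13 lipase genes, *lipl-2*, a lysosomal lipase gene, had 0.51 cpm at 15 °C and 3.04 cpm at 25 °C (-2.58, standard error 0.44, adjusted p = 0.023). The desaturase genes *fat-1* to *fat-7* gave 1 higher and none lower of 7, and none of the 8 elongase genes was called. *F09F7.4*, now *hach-1*, of propionate breakdown (0.78, standard error 0.23) and *sams-3*, an S-adenosylmethionine synthetase gene (0.60, standard error 0.21), were higher without adjustment.

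Nuclear hormone receptors, a family of transcription factors that has expanded in nematodes and senses lipids and other small molecules, were called at a share near that of all genes. Of 276 annotated, 150 were tested, 6 were higher (4%) and 6 were lower (4%), and none had an adjusted p below 0.05. The called members included *nhr-235* (-1.02, standard error 0.29), *nhr-176* (-0.91), *nhr-100* (0.71) and *nhr-11* (1.12). *nhr-49*, which acts with MDT-15 on fatty acid genes, had 12.7 cpm at 15 °C and 9.68 cpm at 25 °C, with an error larger than its value (0.39, standard error 0.74).

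A list of 21 genes known from thermosensation and the cold response was tested for its own mRNA levels. Of these, 1 was higher and 1 was lower, which is 4.76% in each direction, against 3.19% higher and 6.18% lower of all genes. The lower gene was *zip-10*, a bZIP factor gene that is induced by a shift to severe cold in *C*. *elegans*. It had 1.17 cpm at 15 °C and 4.40 cpm at 25 °C (-1.91, standard error 0.48, adjusted p = 0.11). The higher gene was *asp-17*, a protease gene that is also counted among the *cpr* and *asp* genes above. It had 1.91 cpm at 15 °C and 0.92 cpm at 25 °C (1.05, standard error 0.28, adjusted p = 0.13). *F53B7.3*, now *isy-1*, an upstream regulator of *zip-10*, had a value of -0.06 (standard error 0.50).

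Among the sensors and regulators of that list, none was called. *trpa-1*, a cold-sensitive channel gene, had 0.77 cpm at 15 °C and 1.07 cpm at 25 °C (-0.48, standard error 0.34), and the kinase genes *sgk-1* (0.39, standard error 0.20) and *pkc-2* (-0.01, standard error 0.29) that act with it in cold were also not called. *acdh-11*, which limits *fat-7* in heat, passed the limit on p but not that on fold change (-0.48, standard error 0.21, adjusted p = 0.47). *paqr-2* (0.82, standard error 0.64) and *iglr-2* (0.45, standard error 0.53), which encode a pair of membrane proteins needed in the cold, had errors near the size of their values. *daf-16* (0.54, standard error 0.88), *sbp-1* (-0.03, standard error 0.24), *nhr-66* (0.37, standard error 0.49), *cpr-3* (0.92, standard error 0.51) and *mdt-15* itself (0.23, standard error 1.58) were not called. Of the cold-shock domain genes, *cey-1* (0.18), *cey-2* (0.23), *cey-3* (0.17) and *lin-28* (0.32) had values above 0 and *cey-4* had a value of -0.52 (standard error 0.39). The thermosensory guanylate cyclase genes *gcy-8*, *gcy-18* and *gcy-23* were not among the genes tested.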

How the data were processed

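RNA-seq of whole day 1 adult wild-type worms at 15 °C (3 libraries) and 25 °C (3 libraries) was analysed from the authors' table of this comparison. Alignment to ce11 was done by the authors with HISAT2 (2.0.5), followed by StringTie (1.3.3) and Ballgown. The authors left out genes under 1 cpm and compared groups on voom values with edgeR (3.10.5) and limma (3.24.15). The deposited values are log2 fold changes and average log2 expression. The deposited table also gives a moderated t score of limma for each gene. The p-values and adjusted p are the authors' own, and the adjusted p equals a Benjamini-Hochberg adjustment over all 12749 genes. The authors' log-odds column was not used. The direction of the fold change was read from the order of the groups in the table's name and turned to 15 °C minus 25 °C.

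Standard errors were recovered as log2 fold change divided by t, on 10.4 degrees of freedom recovered from t and p, and the formulas were tested on simulated data. Group levels combine the average expression, which is the same in the 3 tables of the series, with the fold changes of all 3 tables, on the assumption, not stated in the sources used here, that the average runs over all 12 libraries. Gene coordinates were taken from the Ensembl WBcel235 annotation (release 115), which is the ce11 assembly, and 12712 of 12749 identifiers matched. Families were set by patterns of deposited gene names or current symbols, and counts of annotated genes include pseudogenes.

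Genes were named by rule: the 15 largest and 15 lowest protein-coding log2 fold changes among those with an adjusted p below 0.05 and an average log2 expression of at least 0, up to 4 called members of each family by absolute t, and all members of the temperature list. Of *fat-1* to *fat-7* and *hsp-16*, counts alone are given. Other genes were named after their values were seen. The rules, lists and families were chosen with earlier results of these data known. Alternatives were calls by adjusted p, another fold limit (2) or no fold limit, a minimum average expression, 2 centrings, larger standard errors and protein-coding genes alone. Computations used scipy 1.17.1, pandas 2.3.3 and numpy 2.4.6 in Python 3.11.15, and figures used matplotlib 3.10.9.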

Additional observations from a re-analysis of the deposited data

How the results depend on the processing

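The counts of 407 higher and 788 lower genes depended most on the p used. With an adjusted p below 0.05 they were 40 and 118. The count of higher genes was 258 with a fold limit of 2, 265 among genes whose average log2 expression was 1 or more and 256 with standard errors 1.2 times as large, while the counts of lower genes under these 3 settings (552, 538 and 556) stayed within 1.5 times of the main count. Without a fold limit (489 and 834), among protein-coding genes alone (384 and 735) and under both centrings (355 and 875 on the median of all genes, 343 and 905 by average expression) both counts did so too. Of the 189 genes that the rule named, 110 lost their call with the adjusted p, 34 with a fold limit of 2 and 24 with larger errors. Centring lost 3 calls in each form and turned the sign of *F53B7.3*, which was not called, to 0.041 (from -0.061), and *acdh-11* was called without a fold limit. The centring by expression shifted genes by between -0.14 and 0.32, and 10 of the 75 family medians, all under 0.1 in size, changed sign under a centring. Without a fold limit, 1 chaperonin gene (higher) and 1 endoplasmic reticulum folding gene (lower) passed the unadjusted p of limma. None of the proteasome, vacuolar ATPase, major sperm protein, patched-related, moulting, elongase or 12 listed mitochondrially encoded genes did. No paired analysis was possible because the tables hold no value per library. For the same reason leaving out each repeat was not run, and whether 1 library decides a value is unknown here. At low expression the errors are larger, so a gene there that was not called cannot be said to be unchanged.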

Other observations

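The groups below were picked after their values were seen and are descriptions. Of 22 carboxylesterase genes with the current symbol *cest*, 9 were lower (40.9%) and none was higher at 15 °C, against 6.18% and 3.19% of all genes. *ZC376.2*, now *cest-2.2*, had 5.72 cpm at 15 °C and 15.4 cpm at 25 °C (-1.43, standard error 0.22, adjusted p = 0.015 in limma), and *K11G9.2*, now *cest-31*, had the lowest value of the group with a large error (-4.05, standard error 1.69). Of 4 tested genes for DSL ligands of Notch receptors, *dsl-1* (-2.20, standard error 0.56), *dsl-2* (-1.73, standard error 0.76) and *dsl-3* (-3.04, standard error 1.16) were lower without adjustment. Of 11 bZIP genes of the *zip* series, 5 were lower (45.5%) and none was higher. These were *zip-8* at -2.65 (standard error 0.69), *zip-3* at -1.92, *zip-10* at -1.91, *zip-7* at -1.40 and *zip-1* at -0.75. The infection response genes *F35E12.5* (*irg-5*, -1.67, standard error 0.36, adjusted p = 0.061) and *F08G5.6* (*irg-4*, -1.31, standard error 0.36, adjusted p = 0.14) were lower too.

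Single genes with an adjusted p below 0.05 in no family above had 108 of the 158 such calls. *ftn-1*, a ferritin gene for iron storage, had 0.30 cpm at 15 °C and 3.71 cpm at 25 °C (-3.62, standard error 0.67), while *ftn-2* had 289 cpm at 15 °C and 261 cpm at 25 °C with a wide error (0.15, standard error 0.88). *scrm-4*, a phospholipid scramblase gene, had 1.43 cpm at 15 °C and 16.6 cpm at 25 °C (-3.54, standard error 0.49). *snpc-1.3*, which drives male piRNA transcription, changed by -1.86 (standard error 0.33), and *nex-1*, an annexin gene, by -0.74 (standard error 0.15). Higher at 15 °C were *gpa-1*, a G protein gene of sensory neurons (1.74 cpm at 15 °C and 0.13 cpm at 25 °C, 3.73, standard error 0.75), *R08E5.3*, now *rips-1* (1.80, standard error 0.26), *cth-1*, a cystathionine lyase gene (1.22, standard error 0.23), and *fmo-3*, a flavin monooxygenase gene (1.04, standard error 0.21).

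Of 25 lincRNA genes tested, 8 were lower (32%) and 1 was higher (4%), against 6.18% and 3.19% of all genes. *linc-41* at -2.62 (standard error 0.41) and *linc-21* at -2.45 (standard error 0.48) passed adjustment. Of 228 pseudogenes, 29 were lower (12.7%) and 11 higher, and of the 12313 protein-coding genes 5.97% were lower and 3.12% higher. Reads of a pseudogene and its parent gene may be shared. By chromosome, V had the most calls (4.78% higher and 8.82% lower of 2425 genes) and I fewer (2.25% and 4.23% of 2175). On X, 3.76% of genes were higher and 5.42% lower. The median average log2 expression was 2.40 on V, 3.48 on I and 1.90 on X, the lowest. The part of expression level in these shares was not tested. Runs of at least 3 neighbouring tested genes called the same way, less than 20000 bases apart, numbered 23, of which 19 were lower and 4 higher at 15 °C. The part of overlapping transcripts or shared reads in these runs was not tested.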
